A study of Mus musculus with 6 samples.

Results

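The renin-angiotensin system was represented by 8 genes, chosen by symbol for their roles as the angiotensin precursor, the processing enzymes, the receptors and their partners, and all 8 were among the 23997 genes of the deposited table. Bulk RNA-Seq had been carried out on the ductus arteriosus (DA) of C57BL/6 embryos at E17.5. The DA is the fetal vessel that joins the pulmonary artery to the aorta and is rich in smooth muscle cells (SMCs). There were 3 libraries of wild type (WT) DA, for which the study names littermates as controls, and 3 libraries of *Prdm6 fl/fl SM22-Cre* DA, whose titles carry the label KO, all without treatment. In the latter, both alleles of *Prdm6* are floxed and *SM22-Cre* expresses Cre-recombinase in SMCs, so cells of the vessel without *SM22-Cre* activity keep the gene. The labels do not say how many embryos went into a library, nor whether the WT embryos carried Cre.

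In this system the protease renin cuts angiotensinogen into angiotensin I, angiotensin-converting enzyme turns that into the vasoconstrictor angiotensin II, and aminopeptidases trim it further. Angiotensin II acts through the type 1 receptor, which in vessels drives contraction and growth, and through the type 2 receptor, which is abundant in fetal mesenchyme and mostly opposes the type 1 receptor. Mice hold a pair of type 1 receptor genes, *Agtr1a* and *Agtr1b*. The comparison asked whether the transcripts of these components differed between WT and *Prdm6 fl/fl SM22-Cre* DA.

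Expression was read as FPKM, the fragments of a gene per unit of transcript length and of mapped fragments, which allows levels to be set side by side between genes. The total depth of a library is unknown from FPKM. The steps between low values gave a relative depth of 0.927 to 1.19, with WT library 1 set to 1, and the upper quartile lay between 10.4 and 10.8 FPKM. Of the 3506 genes with a mean of at least 20 FPKM, 34 to 61 were listed at 0 in any 1 library, so a value of exactly 0 may reflect an estimate that failed. *Prdm6*, the targeted gene, had 41.7, 48.4 and 19.8 FPKM in WT against 48.6, 27.1 and 15.4 FPKM in KO by the labels. These ranges overlap, and a whole-gene value need not fall where only a part of a gene is removed. The paper reports reduced *Prdm6* in the DA of this genotype by qRT-PCR. Since the FPKM of *Prdm6* does not separate the groups, each direction below rests on the deposited labels. All 10 smooth muscle markers were present in all 6 libraries, which is what the labelled tissue should hold. Their summed level was 5799, 2904 and 2522 FPKM in WT and 2415, 1812 and 925 FPKM in KO libraries 0, 1 and 2. Heart muscle markers, which the vessel itself should lack, summed to 981 FPKM in WT library 1 and 956 FPKM in KO library 2 against 49.0 to 449 FPKM elsewhere. *Xist*, expressed from the inactive X chromosome, was at 67.0 to 82.8 FPKM in WT library 0 and KO libraries 0 and 1 and under 1 FPKM in the others. The Y-linked gene *Ddx3y* was at 20.1 to 26.4 FPKM in WT libraries 1 and 2 and KO libraries 0 and 2, so KO library 0 held both signals.

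The 8 genes spanned more than 100-fold in level, from the type 2 receptor gene *Agtr2* at a mean of 79.4 FPKM over the 6 libraries to the precursor gene *Agt* at 0.550 FPKM. *Agtr2* and *Ace* (65.7 FPKM), the gene for angiotensin-converting enzyme, were among the more abundant transcripts of the vessel, with 97.1% and 96.3% of all genes at a lower mean. *Agtr2* was above *Ace* in 4 of 6 libraries, 1 WT and 3 KO, so the order of this pair was not fixed. *Agtrap* (8.51 FPKM), *Enpep* (7.35 FPKM) and *Atp6ap2* (6.25 FPKM) formed a middle group whose order differed from library to library: *Agtrap* was above *Enpep* in 2 of 6 and *Enpep* above *Atp6ap2* in 4 of 6. *Agtr1a* (2.39 FPKM) was below *Atp6ap2* in 6 of 6 libraries and above *Agtr1b* (1.82 FPKM) in 5 of 6.

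**Figure D1:**
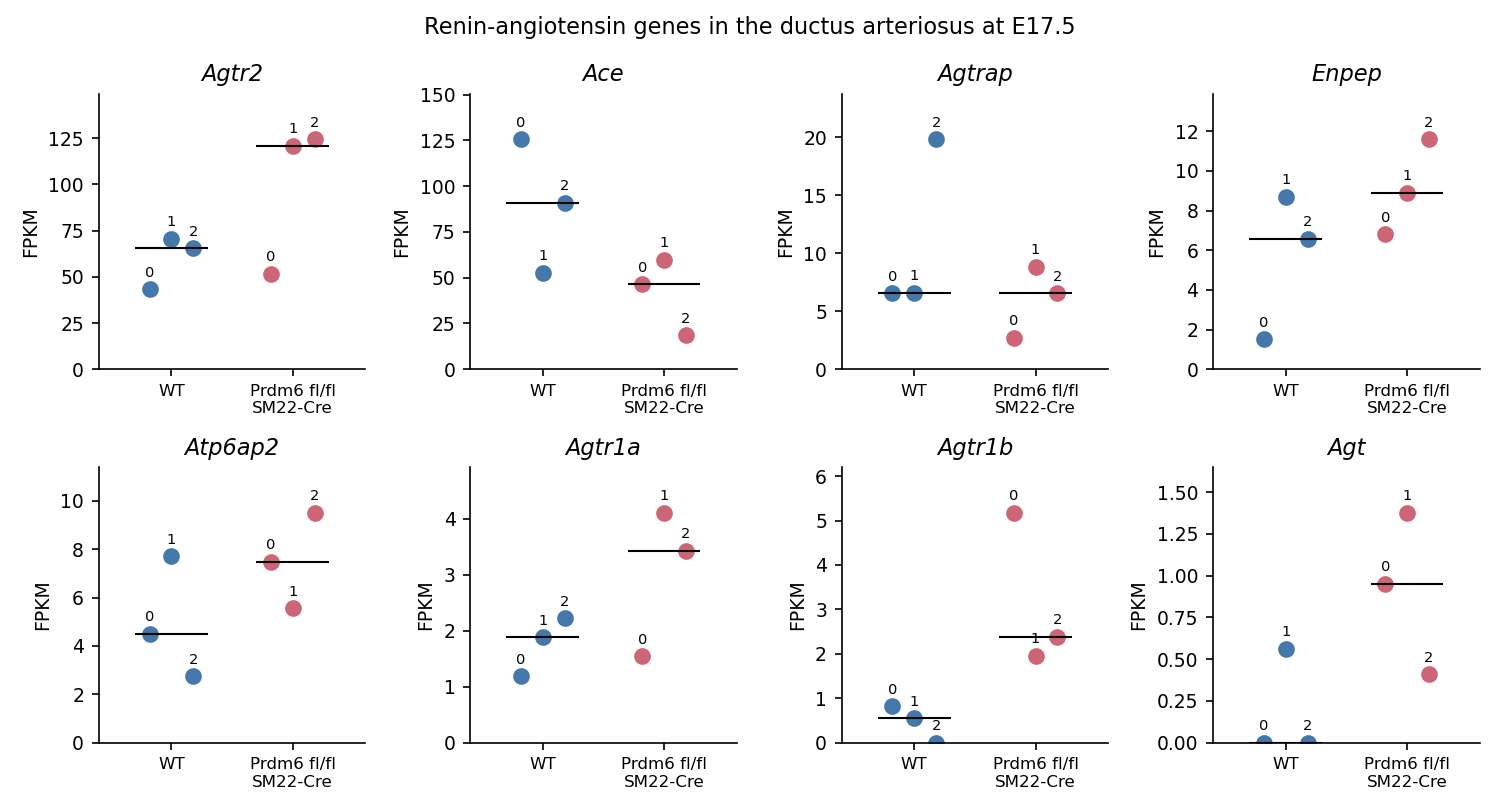
FPKM of the 8 genes, one panel each with its own axis from 0, in the 3 WT (blue) and 3 *Prdm6 fl/fl SM22-Cre* (red) libraries; each point is 1 library with its number and the black bar is the group median. The groups are separate for *Agtr1b* alone, where the KO libraries sit between 1.96 and 5.17 FPKM and the WT libraries at or under 0.822 FPKM.

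For the test, limma was fitted to log2(FPKM + 0.1) over the 12955 genes with a mean of at least 1 FPKM, and all fold changes are given on that scale. The added 0.1 shrinks differences of low genes, whereas a library listed at 0, which may be a failed estimate, can enlarge them. *Agt* was under this minimum, and 7 of the 8 genes were tested. Of these, 5 lay above 0 and 2 below 0 in KO against WT, with a median log2 fold change of 0.67, and 0 of 7 had an adjusted p under 0.05 in limma, against 0.00772% of all tested genes. The adjusted p values in limma were 0.591 to 0.758. At an unadjusted p under 0.05 there were 2 of the 7, *Ace* and *Agtr1b*, against 8.28% of all tested genes. The groups did not overlap for 1 of the 7, *Agtr1b*, against 16.1% of all tested genes. *Agtr1b* passed the minimum level only through the KO libraries and so was likely to differ. The median over all tested genes was 0.072, with the middle of the distribution between -0.28 and 0.51 and a median standard error of 0.41. The standard errors of the 7 genes were 0.37 to 1.19, so that changes of the size seen here could not be told from the spread between 3 libraries.

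**Figure D2:**
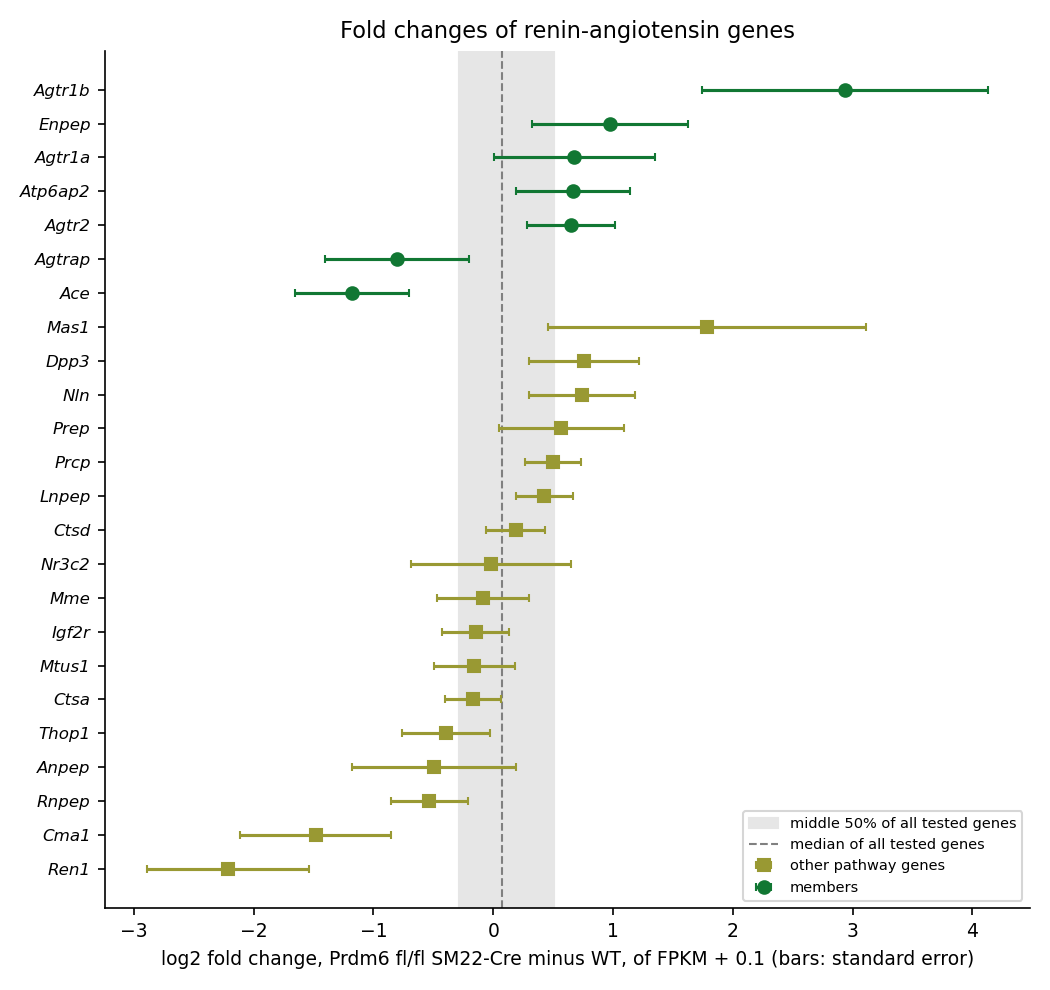
Log2 fold change (KO minus WT, of FPKM + 0.1) with its standard error for the 7 tested genes (green) and the 17 tested genes of the list for the rest of the pathway (olive), beside the middle 50% of all tested genes (grey band) and their median (dashed line). *Agtr1b* at 2.94 and *Ace* at -1.18 lie farthest from 0 among the 7, and *Ren1* at -2.21 and *Mas1* at 1.78, which holds a WT library listed at 0, among the others.

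The region upstream of the transcript start is shown for *Ace* and *Agtr1b*, the genes whose unadjusted p was under 0.05, and for *Agtr2*, the most abundant of the 8. Each run is the 250 bases before the start in RefSeq for GRCm38.p6, written 5′ to 3′ on the strand of the gene. The capitals mark matches to TATANA, the core of a TATA box, on either strand. Over the 32851 promoters of the table, 22.6% held TATANA on either strand, overlapping matches included. A RefSeq promoter was found for 7 of the 8 genes, and 5 of those 7 held it: *Agt*, *Ace*, *Agtr1b*, *Agtr2* and *Enpep*.
Ace promoter, chr11:105967698-105967947, plus strand: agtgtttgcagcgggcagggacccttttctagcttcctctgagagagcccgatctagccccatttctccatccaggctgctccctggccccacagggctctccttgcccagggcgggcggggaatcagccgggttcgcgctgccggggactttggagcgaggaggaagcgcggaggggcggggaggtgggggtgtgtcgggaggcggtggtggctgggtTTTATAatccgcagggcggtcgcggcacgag
Agtr1b promoter, chr3:20367178-20367427, minus strand: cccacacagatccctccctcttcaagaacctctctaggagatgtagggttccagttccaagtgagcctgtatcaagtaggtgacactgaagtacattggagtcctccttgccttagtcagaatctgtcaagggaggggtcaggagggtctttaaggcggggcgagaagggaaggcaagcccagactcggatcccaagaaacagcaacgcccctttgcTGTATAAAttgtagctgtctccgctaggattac
Agtr2 promoter, chrX:21484374-21484623, plus strand: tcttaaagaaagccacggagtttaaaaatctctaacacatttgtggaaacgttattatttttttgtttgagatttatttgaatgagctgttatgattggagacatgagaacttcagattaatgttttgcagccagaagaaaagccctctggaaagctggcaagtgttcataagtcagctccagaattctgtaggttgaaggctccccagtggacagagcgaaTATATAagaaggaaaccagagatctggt
The first base of the match lay 31 bases before the start in *Ace*, 33 and 31 bases before it in *Agtr1b* and 28 bases before it in *Agtr2*. The match in *Ace*, TTTATA, and the one 33 bases before the start in *Agtr1b*, TGTATA, read as TATANA only on the opposite strand. The single match in *Enpep* was also on the opposite strand. The windows differed in base composition, with a GC content of 67.2% in *Ace*, 52% in *Agtr1b* and 38.4% in *Agtr2*. GGGCGG, the GC box, was matched 4 times in the *Ace* window (both strands searched, overlaps counted) and 0 times in the windows of *Agtr1b* and *Agtr2*, against 32.7% of all promoters with at least 1 match. These values of *Ace* are those of its first annotated start, and the window before its second start, inside the gene, had 0 matches to TATANA, 0 to GGGCGG and a GC content of 58%. The CArG box, the motif of serum response factor in SMC genes, was searched by name on both strands and matched in 0 of the windows of these genes, against 1.47% of all promoters.

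*Agt* (chromosome 8 of GRCm38.p6, 124556587 to 124569706, minus strand) encodes angiotensinogen, the single precursor of the angiotensins, which is made mainly by the liver. Its level was 0, 0.561 and 0 FPKM in WT libraries 0, 1 and 2 and 0.951, 1.38 and 0.411 FPKM in KO libraries 0, 1 and 2. The transcript was low or listed at 0 in every library, where a 0 may be a failed estimate, and the ranges overlap, since WT library 1 lay above KO library 2.

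Renin can act in solution or bound to the prorenin receptor, which is encoded by *Atp6ap2* (chromosome X, 12587759 to 12617051, plus strand) and is also an accessory subunit of the vacuolar proton pump. *Atp6ap2* was at 4.50, 7.72 and 2.75 FPKM in WT and at 7.48, 5.56 and 9.50 FPKM in KO. The means were 4.99 ± 2.52 and 7.51 ± 1.97 FPKM (SD, n = 3 each). The log2 fold change was 0.67 (standard error 0.47, adjusted p = 0.700 from limma). WT library 1 lay above KO libraries 0 and 1. Without WT library 1 the groups were separate and the log2 fold change was 1.04, and without WT library 2 it was 0.31. In its longest coding transcript, 3.95% of the 45-base stretches also occur in *Gm36448*, so a small share of its reads may have been split. Among the 15 other genes of the proton pump, all tested, 6 lay above 0 and 9 below 0, with a median of -0.079, and 0 had an adjusted p under 0.05 in limma. *Atp6ap1*, the partner accessory subunit, was at 27.2, 20.5 and 18.7 FPKM in WT and at 39.8, 31.6 and 29.7 FPKM in KO (log2 fold change 0.61, standard error 0.22, adjusted p = 0.574 from limma). *Atp6v1b2*, a subunit of the catalytic head, was at 8.06, 12.0 and 3.17 FPKM against 13.8, 21.7 and 17.3 FPKM (log2 fold change 1.34, standard error 0.49, adjusted p = 0.570 from limma). In both genes every KO library lay above every WT library, as in 8.21% of all tested genes. *Atp6v0c*, a subunit of the membrane ring, lay the other way, at 27.0, 19.1 and 0.000751 FPKM in WT and at 0.000662 to 0.000689 FPKM in KO. It had the largest log2 fold change of the 15, at -5.22 (standard error 2.29, adjusted p = 0.601 from limma), with WT library 2 near 0 as well. *Atp6v0c* passed the minimum level only through WT libraries 0 and 1 and so was likely to differ. Values this near 0 may, like a value of exactly 0, reflect an estimate that failed.

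*Ace* (chromosome 11, 105967948 to 105989964, plus strand) encodes the angiotensin-converting enzyme, a membrane peptidase that makes angiotensin II and degrades bradykinin. Its level was 125, 52.8 and 91.0 FPKM in WT libraries 0, 1 and 2 and 46.4, 59.8 and 18.5 FPKM in KO libraries 0, 1 and 2. KO library 2 was the lowest of the 6 and WT library 0 the highest, and a single pair crossed, since KO library 1 lay above WT library 1. The means were 89.8 ± 36.4 and 41.6 ± 21.1 FPKM (SD, n = 3 each), a ratio of 2.16 of WT to KO. The log2 fold change was -1.18 with a standard error of 0.48 (limma, unadjusted p = 0.0394 and adjusted p = 0.591). A two-sided exact permutation test of the group labels gave p = 0.2, where 0.1 is the smallest possible. Without KO library 2 the log2 fold change was -0.68, and without WT library 1 or KO library 1 it was -1.52. All 10 smooth muscle markers lay below 0 as *Ace* did, with a median log2 fold change of -1.56. For 6 of them the groups did not overlap, against 7.84% of all tested genes. WT library 0 was highest and KO library 2 lowest in both *Ace* and the smooth muscle sum. WT library 2, however, had a lower sum than WT library 1 (2522 against 2904 FPKM) but more *Ace*. Likewise, KO library 1 had a lower sum than KO library 0 (1812 against 2415 FPKM) but more *Ace*. Of the 10 markers of endothelial cells, a known site of *Ace*, 7 lay above 0, and their sum was 340 to 508 FPKM in WT and 424 to 659 FPKM in KO. WT library 1 and KO library 2, the pair highest in heart muscle markers, were the lowest of their groups in *Ace*. The same pair was highest of its groups in *Agtr2*, *Enpep* and *Atp6ap2*, whereas *Agt*, *Agtr1a*, *Agtr1b* and *Agtrap* held neither pattern. Without this pair the log2 fold change of *Ace* was -1.02 (standard error 0.26, adjusted p = 0.663 from limma). The part of smooth muscle, endothelial or heart muscle content in these values was not tested. In bulk tissue fewer cells of a type cannot be told apart from less RNA per cell. *Ace* has 2 annotated starts that the FPKM does not separate, and 173 exon bases overlap the antisense gene *Gm11651*, which was listed at 0 in all 6 libraries.

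*Enpep* (chromosome 3, 129269177 to 129332749, minus strand) encodes aminopeptidase A, which shortens angiotensin II to angiotensin III. It was at 1.52, 8.71 and 6.59 FPKM in WT and at 6.80, 8.90 and 11.6 FPKM in KO. The means were 5.61 ± 3.69 and 9.09 ± 2.40 FPKM (SD, n = 3 each). The log2 fold change reached 0.97 (standard error 0.65, adjusted p = 0.687 from limma). WT library 0 held the lowest value and decided most of the difference, since the log2 fold change was 0.23 without it. The FPKM ratio of *Ace* to *Enpep* within a library sets the enzyme that makes angiotensin II against the one that trims it. This ratio was 82.4, 6.06 and 13.8 in WT and 6.82, 6.72 and 1.60 in KO. The ratio was high in WT library 0 and low in KO library 2. WT library 1 and KO libraries 0 and 1 lay between 6.06 and 6.82, and WT library 2 lay above them at 13.8. The log2 ratio was 4.21 ± 1.88 in WT and 2.05 ± 1.20 in KO (SD, n = 3 each), a difference of -2.16 (two-sided exact permutation test, p = 0.3), with -1.12 without WT library 0 and -2.97 without WT library 1 as the extremes when each library was left out.

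The type 1 receptor is the product of *Agtr1a* (chromosome 13, 30336356 to 30382867, plus strand) and *Agtr1b* (chromosome 3, 20314473 to 20367177, minus strand), 2 genes with closely related coding sequences, of which *Agtr1a* is the main one in most mouse vessels. *Agtr1a* was at 1.19, 1.89 and 2.22 FPKM in WT and at 1.54, 4.10 and 3.42 FPKM in KO. KO libraries 1 and 2 lay above all WT libraries, whereas KO library 0 lay within the WT range. The means were 1.77 ± 0.528 and 3.02 ± 1.33 FPKM (SD, n = 3 each), and the log2 fold change was 0.68 (standard error 0.67, adjusted p = 0.758 from limma). Without KO library 0 it was 1.09, without KO library 1 it was 0.41 and without WT library 0 it was 0.43.

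*Agtr1b* was at 0.822, 0.553 and 0 FPKM in WT libraries 0, 1 and 2 and at 5.17, 1.96 and 2.39 FPKM in KO libraries 0, 1 and 2. The 3 KO libraries were all above the 3 WT libraries, by the widest margin in KO library 0, as in 8.21% of all tested genes (exact permutation test, two-sided, p = 0.1, which is the smallest possible). The log2 fold change was 2.94 with a standard error of 1.19 (limma, unadjusted p = 0.0405 and adjusted p = 0.591), and the WT value listed at 0 makes its size depend on the pseudocount: with 1 in place of 0.1 it was 1.48. Without WT library 2, which holds that 0, it was 1.95. Only 2.0% of the 45-base stretches of *Agtr1a* occur in *Agtr1b*, and 2.0% the other way, so most reads of the 2 genes could be told apart. Schwann cell and neuron markers were higher in KO as *Agtr1b* was. Their sums were 16.9 to 40.3 and 26.6 to 37.3 FPKM in WT and 49.5 to 180 and 63.1 to 82.0 FPKM in KO. The median log2 fold change was 2.26 over 10 tested Schwann cell markers, with *S100b* below 0. It was 2.03 over 8 tested neuron markers, with *Gap43* below 0. The 6 tested erythroid markers also all lay above 0, with a median of 1.21, though the sums of that list overlapped. Within KO, however, *Agtr1b* was highest in library 0, where the Schwann cell sum was lowest. The part of these cell types in the *Agtr1b* values was not tested.

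The sum of both type 1 receptor genes was computed after the values of each had been seen. It was 2.01, 2.44 and 2.22 FPKM in WT and 6.71, 6.06 and 5.81 FPKM in KO. The spread within each group was narrow in the sum, at 2.22 ± 0.214 and 6.19 ± 0.465 FPKM (SD, n = 3 each), a ratio of 2.79, although the share that came from *Agtr1b* ran from 0% to 40.9% in WT and from 32.3% to 77.0% in KO. KO library 0 reached its sum mainly through *Agtr1b*, and KO library 1 mainly through *Agtr1a*. The log2 difference of the sum was 1.44 (exact permutation test, two-sided, p = 0.1, which is the smallest possible), 1.37 to 1.50 with each library left out and 1.16 with a pseudocount of 1. Because the sum was chosen from these values, this p is a description and not independent support. The sum also holds *Agtr1b*, which passed the minimum level only through the KO libraries, so the sum was likely to differ. *Agtr1a* alone had overlapping groups.

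**Figure D3:**
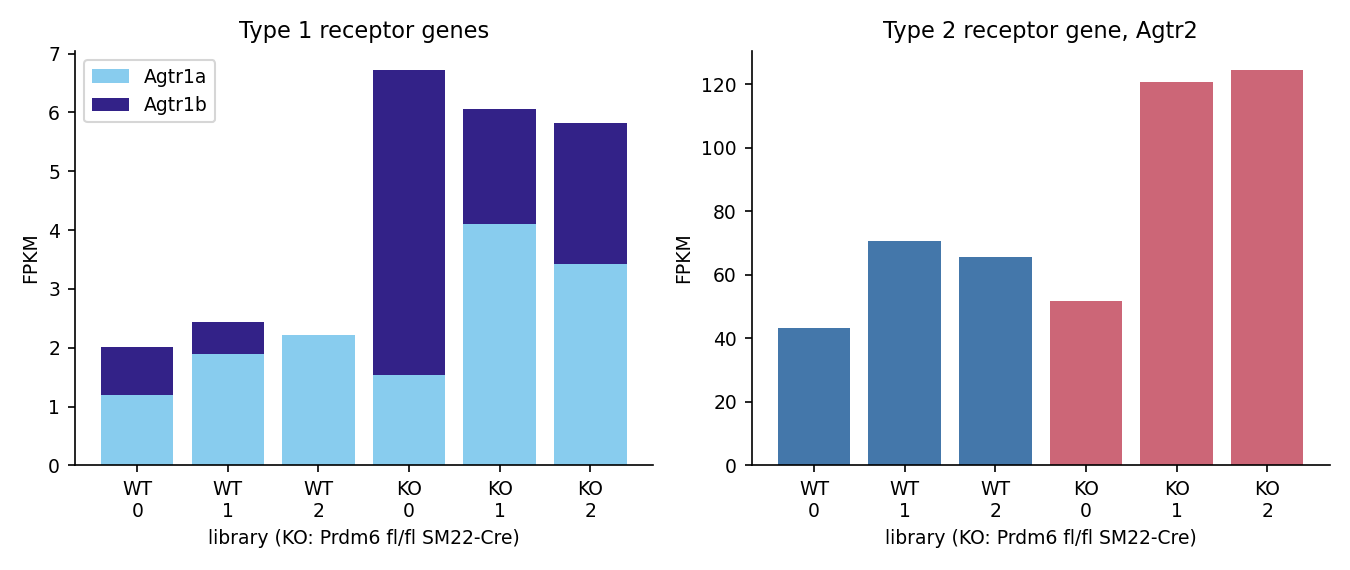
FPKM per library of the type 1 receptor genes, *Agtr1a* (light blue) stacked with *Agtr1b* (dark blue), at left, and of *Agtr2* at right, where WT is blue and KO is red; both axes start at 0 and differ in scale. The stacked type 1 bars stand at 2.01 to 2.44 FPKM in WT and 5.81 to 6.71 FPKM in KO. They hold *Agtr1b*, which passed the minimum level only through the KO libraries. The *Agtr2* bar of KO library 0, at 51.7 FPKM, is within the WT range.

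*Agtr2* (chromosome X, 21484624 to 21488833, plus strand) encodes the type 2 receptor. It was at 43.4, 70.5 and 65.5 FPKM in WT libraries 0, 1 and 2 and at 51.7, 121 and 124 FPKM in KO libraries 0, 1 and 2. KO libraries 1 and 2 were well above the WT range, and KO library 0 lay inside it. The means were 59.8 ± 14.5 and 98.9 ± 40.9 FPKM (SD, n = 3 each), and the log2 fold change was 0.65 (standard error 0.37, adjusted p = 0.656 from limma). Without KO library 0 it was 1.06 and the groups were separate, and without KO library 2 it was 0.43. The gene is X-linked. Within WT, library 0, which was high in *Xist*, held less *Agtr2* than the others, at 43.4 FPKM against 70.5 and 65.5 FPKM. In KO, libraries 0 and 1, both high in *Xist*, were at 51.7 and 121 FPKM against 124 FPKM in library 2. KO libraries 1 and 2 were thus close to each other, and KO library 0 also held *Ddx3y*. The part of sex in the *Agtr2* values was not tested. The markers of fibroblasts and mesenchyme, where this receptor is known to be expressed, split evenly, with 5 of 10 above 0 and 5 below 0, and summed to 3534, 4769 and 6368 FPKM in WT and 2878, 5990 and 5692 FPKM in KO. WT library 0 and KO library 0, the lowest of their groups in *Agtr2*, were also the lowest in this sum, whose part in the *Agtr2* values was not tested.

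*Agtr2* made up most of the receptor transcripts in every library, at 95.6%, 96.7% and 96.7% of the summed FPKM of the 3 receptor genes in WT and 88.5%, 95.2% and 95.5% in KO. The *Agtr1a* share was 2.83% on average in both groups, so the difference in the *Agtr2* share rests on *Agtr1b*, which passed the minimum level through the KO libraries. The KO shares were all below the WT shares, by a margin that was narrow in KO libraries 1 and 2 (96.3 ± 0.646% against 93.1 ± 3.97%, SD, n = 3 each; two-sided exact permutation test, p = 0.1). *Agtr2* and *Agtr1a* kept nearly the same proportion in all 6 libraries. The FPKM ratio of *Agtr2* to *Agtr1a* was 36.5, 37.4 and 29.5 in WT and 33.5, 29.4 and 36.3 in KO, while *Agtr2* itself ran from 43.4 to 124 FPKM. The log2 ratio was 5.02 ± 0.17 in WT and 4.99 ± 0.15 in KO (SD, n = 3 each), a difference of -0.03 that was smaller than the spread between libraries (two-sided exact permutation test, p = 0.9).

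*Agtrap* (chromosome 4, 148077061 to 148088064, minus strand) encodes a membrane protein that binds the tail of the type 1 receptor and promotes its internalization. It was at 6.55, 6.61 and 19.8 FPKM in WT and at 2.72, 8.82 and 6.55 FPKM in KO. WT library 2 stood above all other libraries and KO library 0 below them, and the rest lay between 6.55 and 8.82 FPKM. The means were 11.0 ± 7.63 and 6.03 ± 3.08 FPKM (SD, n = 3 each), and the log2 fold change was -0.80 (standard error 0.60, adjusted p = 0.706 from limma). Without WT library 2 it was -0.28, and without KO library 0 it was -0.32, so the size rested on these libraries.

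Over all fits, the 7 log2 fold changes kept their signs in 96 of 96 values from the 14 alternatives, and 0 of those 96 had an adjusted p under 0.05 in limma, with a lowest value of 0.453. These fits share most of their libraries, so the count of signs kept is not a count of independent tests.

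**Figure D4:**
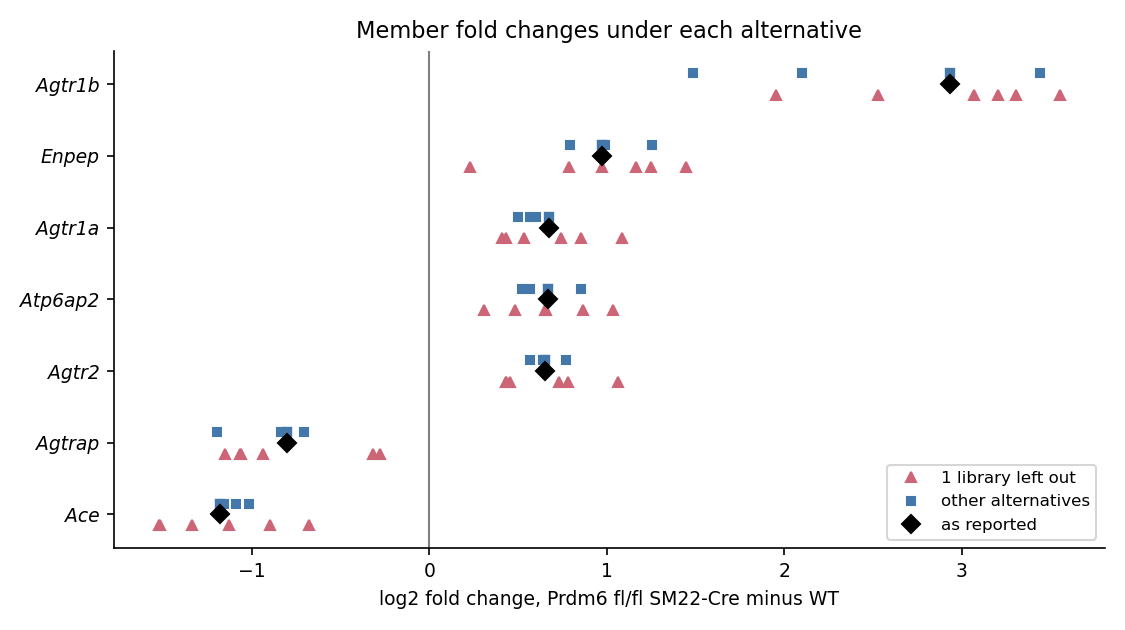
Log2 fold change (KO minus WT) of the 7 tested genes as reported (black diamonds), with 1 library left out (red triangles) and under the other alternatives (blue squares). All points of a gene stay on one side of 0, and *Enpep* and *Agtrap* come closest to it, at 0.23 without WT library 0 and -0.28 without WT library 2.

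The rest of the pathway was described from a list of 22 genes, of which 17 were tested. Of these 7 lay above 0 and 10 below 0, with a median log2 fold change of -0.088, and 0 had an adjusted p under 0.05 in limma. At an unadjusted p under 0.05 there were 0 higher and 2 lower, *Ren1* and *Cma1*, against 3.31% and 4.97% of all tested genes. The groups did not overlap for 2 higher, *Lnpep* and *Prcp*, and 1 lower, *Ren1*, against 8.21% and 7.84% of all tested genes. The adrenal steroid synthesis genes *Cyp11b1* and *Cyp11b2* and the receptor gene *Mrgprd* were listed at 0 in all 6 libraries.

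*Ren1* (chromosome 1, 133350674 to 133360320, plus strand) encodes renin, which starts the pathway and is made by specialised mural cells of developing vessels as well as by the kidney. Its level was 7.11, 2.80 and 13.8 FPKM in WT and 1.38, 1.46 and 1.16 FPKM in KO. All 3 KO libraries were below all 3 WT libraries and close to each other, whereas the WT libraries were spread over several fold. The means were 7.89 ± 5.52 and 1.33 ± 0.160 FPKM (SD, n = 3 each). The log2 fold change was -2.21 with a standard error of 0.68 (limma, unadjusted p = 0.0121 and adjusted p = 0.540) and -2.81 to -1.68 with each library left out. Of the 9 tested pericyte markers, which label the mural cells of small vessels, 2 lay above 0 and 7 below 0. The groups did not overlap for 3 of them, *Kcnj8*, *Abcc9* and *Cox4i2*, all lower in KO as *Ren1* was, against 7.84% of all tested genes. *Kcnj8* was at 31.2 ± 1.98 FPKM in WT and 14.7 ± 1.26 FPKM in KO (SD, n = 3 each). The sum of the list overlapped, at 656 to 1357 FPKM in WT and 464 to 1214 FPKM in KO, and most of its highest values came from *Rgs5*. The part of mural cell content in the *Ren1* values was not tested.

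*Cma1*, the mast cell chymase that can make angiotensin II without *Ace*, was at 9.37, 17.6 and 42.2 FPKM in WT and at 3.64, 12.7 and 6.72 FPKM in KO (log2 fold change -1.48, standard error 0.63, adjusted p = 0.600 from limma). *Lnpep*, the angiotensin IV receptor peptidase, was at 30.0, 36.4 and 20.7 FPKM in WT and at 38.5, 39.1 and 36.6 FPKM in KO. *Prcp*, a carboxypeptidase that removes the last residue of angiotensin II, was at 16.8, 14.6 and 14.6 FPKM in WT and at 17.3, 22.1 and 26.4 FPKM in KO. The KO libraries lay above the WT libraries in both genes by narrow margins, with log2 fold changes of 0.43 for *Lnpep* and 0.50 for *Prcp*. *Mas1*, the receptor for angiotensin-(1-7), was at 2.12, 0.712 and 0 FPKM in WT and at 2.10, 1.80 and 1.65 FPKM in KO, with overlapping ranges.

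**Figure D5:**
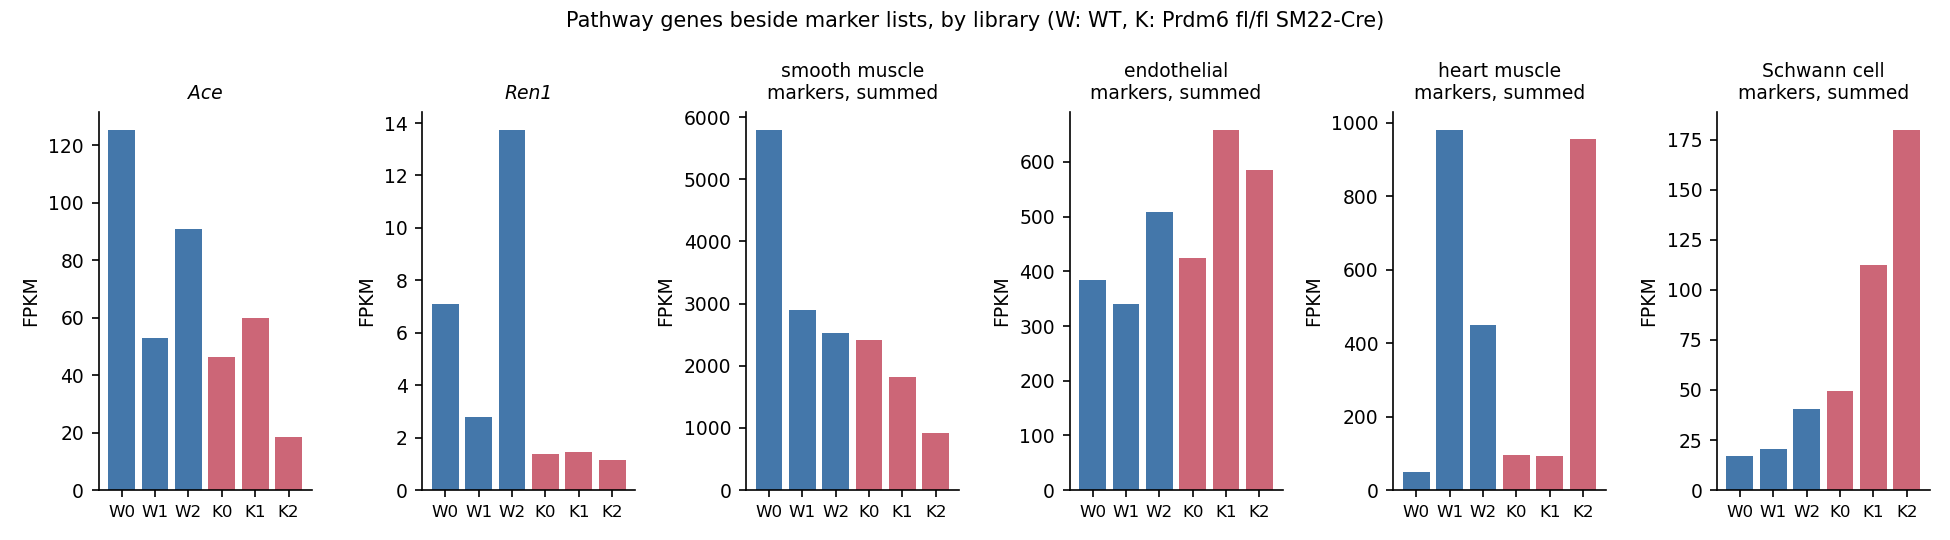
FPKM per library of *Ace* and *Ren1* and summed FPKM of 4 marker lists (smooth muscle, endothelial, heart muscle and Schwann cell), with WT (W) in blue and KO (K) in red and each axis from 0. *Ren1* and the smooth muscle sum are lower in every KO library than in every WT library, whereas the heart muscle sum is highest in WT library 1 and KO library 2.

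Downstream of the type 1 receptor, 21 genes that carry or end its signal were all tested, such as the G protein gene *Gnaq* and the arrestin gene *Arrb2*. Of these 12 lay above 0 and 9 below 0, with a median of 0.17. At an unadjusted p under 0.05 in limma there were 0 of 21, against 8.28% of all tested genes. The groups did not overlap for 0 of 21, against 16.1% of all tested genes. *Gnaq* was at 25.6 ± 3.61 FPKM in WT and 21.6 ± 1.76 FPKM in KO (SD, n = 3 each). Of 14 genes known to be induced by angiotensin II in vascular cells, 13 were tested, 5 above 0 and 8 below 0, with a median of -0.21, and *Il6* was listed at 0 in all 6 libraries. The groups did not overlap for 3 of the 13, all lower in KO, against 7.84% of all tested genes, and 0 had an adjusted p under 0.05 in limma. *Ctgf*, which encodes a matrix protein, was at 402, 232 and 148 FPKM in WT and at 141, 92.8 and 54.6 FPKM in KO (log2 fold change -1.42, standard error 0.44, adjusted p = 0.540 from limma). *Egr1*, an immediate early transcription factor gene, was at 13.6, 12.5 and 11.7 FPKM in WT and at 6.15, 6.28 and 4.99 FPKM in KO (log2 fold change -1.11, standard error 0.28, adjusted p = 0.463 from limma). The third was *Fn1*, the fibronectin gene, at -0.58. *Ctgf* and *Fn1* are also products of SMCs and respond to other signals, and the part of smooth muscle content in their values was not tested. *Fos*, another immediate early gene, had a log2 fold change of 0.73 with overlapping groups. The largest log2 fold changes of the list lay above 0, at 4.11 for *Ccl2*, 2.76 for *Spp1* and 1.60 for *Nr4a3*. Each of these genes had overlapping groups and at least 1 WT library listed at 0.

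The genes most like each receptor and enzyme over the 6 libraries were listed by Pearson r of log2(FPKM + 0.1) among 8789 or 8790 genes with a mean of at least 5 FPKM and no library at 0. With 6 points and this many genes compared, values near 1 are common, and 86 to 310 genes had an r over 0.9 with any of the 7 genes. *Ace* was most like *Ptrf* (r = 0.991), a gene of caveolae, then *Txndc5* and *Wscd2*. *Agtr2* was most like *Stt3b* (r = 0.999), *Fmnl2* and *Ngfr* (r = 0.990), and *Agtr1a* was most like *Shank3* (r = 0.983), *Stt3b* (r = 0.981) and *Kank3*, so *Stt3b* stood in both lists. *Agtr1b* was most like *Ash1l* (r = 0.995), *Tcf12* and *Zfand6*. The lists were led by *Msrb2* for *Agtrap* (r = 0.995), *5031439G07Rik* for *Enpep* (r = 0.991) and *Tmem38a* for *Atp6ap2* (r = 0.995). These points share library preparation and depth, and the values are descriptions.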

How the data were processed

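RNA had been extracted with the miRNeasy Micro kit, and libraries were prepared with Illumina protocols. The authors trimmed the reads, aligned them to mm10 with TopHat2 and computed the deposited FPKM values with Cufflinks, 1 value per gene and library; versions, annotation and strandedness were not given in the sources used here. FPKM holds no counts, so no count test, interval or detection floor was computed, and Cuffdiff, which needs aligned reads, was not repeated.

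Genes averaging 1 FPKM or more were compared on log2(FPKM + 0.1) with limma 3.58.1 in R 4.3.3 (two-sided; lmFit, then eBayes with trend; Benjamini-Hochberg adjustment over 12955 genes, threshold 0.05). Single values and ratios were compared by exact permutation of the group labels. The fit was first tested on simulated data, where 200 of 12955 genes were changed. At a log2 change of 1 it called 0 of the 200, at 2 it called 63 and at 4 it called 126. Unchanged genes called were 0, 2 and 12 in turn. A count of 0 called therefore does not show that genes were unchanged. The labels do not say whether libraries came from separate embryos, so p-values measure only the spread between these libraries.

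The genes and lists were chosen with earlier results of these data known. Named genes were the 8 genes, *Prdm6*, list genes in order of p, and the 3 genes most like each tested gene. The sum of type 1 receptor genes, the markers of sex chromosomes and the kinin genes were chosen after values were seen. Alternatives were another pseudocount, other filters, quantile normalization, no trend, a replicate block and the omission of each library. The fit without WT library 1 and KO library 2 was added after seeing the data. Positions and promoters came from RefSeq for GRCm38.p6 and exon overlaps and shared 45-base stretches, 45 bases being the shortest read kept, from GENCODE vM21. Protein sequences were not used here, and 1 gene of the pathway list is not reported here.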

Additional observations from a re-analysis of the deposited data

How the results depend on the processing

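Over the 14 alternatives, 0 of the renin-angiotensin genes had an adjusted p under 0.05 in limma. The number of genes called over the whole table, 1, was 2 without a mean-variance trend, 2 without WT library 1 and KO library 2 (the pair highest in heart muscle transcripts), and 1 to 2 with each library left out. The number of renin-angiotensin genes whose groups did not overlap, 1 of 7, was 1 to 4 with each library left out, when the share of all tested genes was 24.0% to 28.9%, and 4 without that pair, when it was 38.0%, because fewer libraries are compared. The log2 ratio of *Agtr2* to *Agtr1a* differed by -0.03 between the groups and turned to 0.14 with a pseudocount of 1 and to 0.20 with quantile normalization, and it ran from -0.13 to 0.044 with each library left out; the cause was not tested. Quantile normalization moved the median of all genes from 0.072 to 0.0083. With the replicate block, 1 gene was called over the whole table and 0 of the 7 genes were called. Pairs by replicate number were not seen: same-numbered deviations correlated at 0.12, -0.076 and -0.0088, and 1 of the 3 WT libraries correlated best with its own number. WT library 1 correlated best with KO library 2 (0.14), the pair highest in heart muscle transcripts. So few values cannot exclude pairs, which the labels do not describe. With the block, the genes at an unadjusted p under 0.05 in limma were *Ace* and *Agtr2* in place of *Ace* and *Agtr1b*, and no call at an adjusted p under 0.05 differed. Leaving a library out leaves groups of 3 and 2. What depth limits cannot be given from FPKM, and *Agt* and *Agtr1b* have libraries listed at 0.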

Other observations

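Bradykinin is broken down by angiotensin-converting enzyme, so genes of the kinin side of the pathway were also read, a choice made after values were seen. *Cpe*, which encodes carboxypeptidase E, a processing enzyme of secretory granules, was at 196, 164 and 149 FPKM in WT libraries 0, 1 and 2 and at 97.5, 99.3 and 101 FPKM in KO libraries 0, 1 and 2. The KO libraries lay below the WT libraries and close to each other, at 99.1 ± 1.59 against 170 ± 24.4 FPKM (SD, n = 3 each), and the log2 fold change was -0.76 ± 0.16 (standard error; limma, unadjusted p = 0.00160 and adjusted p = 0.407). *Cpm*, a membrane carboxypeptidase that cleaves kinins, was at 2.61, 2.91 and 3.28 FPKM in WT and at 0, 1.40 and 0.440 FPKM in KO. The groups did not overlap in *Cpe* and *Cpm*, as in 7.84% of all tested genes in that direction, and *Cpm* passed the minimum level only through the WT libraries and so was likely to differ. *Ece1*, the endothelin-converting enzyme gene, was at 78.6, 58.4 and 80.1 FPKM against 36.1, 74.4 and 69.6 FPKM, with overlapping ranges. *Serping1*, read with these genes, lay the other way, at 7.46, 22.6 and 11.3 FPKM in WT and at 10.8, 25.5 and 34.3 FPKM in KO. Its ranges overlapped (log2 fold change 0.77, standard error 0.53, adjusted p = 0.696 from limma). The kinin receptor gene *Bdkrb2* was at 0, 0.362 and 4.64 FPKM in WT and at 0, 2.73 and 0.252 FPKM in KO. *Bdkrb1* and the kallikrein genes *Klk1* and *Klkb1* were listed at 0 in all 6 libraries, as was *Cpn1*. The precursor genes *Kng1* and *Kng2* were at or under 3.58 FPKM in every library.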
